A study of Mus musculus with 7 samples.

Results

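Lipases and lipid storage genes were examined in mouse bone marrow-derived macrophages (BMDMs), cells grown from marrow with the growth factor M-CSF. The 10 genes were chosen by their symbols and fall into 5 roles. Lpl, Lipg, Lipa and Pnpla2 encode lipases, Plin2 and Hilpda encode lipid droplet proteins, Fabp4 and Fabp5 encode fatty acid binding proteins, Acsl1 encodes an acyl-CoA synthetase, and Fasn encodes fatty acid synthase. All 10 were found in both deposited tables, among 48440 genes in the LPS table and 55352 genes in the AAV table. All 10 also passed the filter of a mean value of at least 1, which left 17854 and 11218 genes.

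One experiment followed wild-type BMDMs unstimulated (0 h) and at 2 h and 4 h of 100 ng per mL lipopolysaccharide (LPS), a bacterial cell wall component, each time point being a single library. The other held BMDMs that had carried an adeno-associated virus for 48 h, encoding either GFP (AAV-GFP, labelled wild type) or Shisa3 (AAV-Shisa3, labelled as Shisa3 overexpression), in 2 samples each. All cells were kept in 20 ng per mL M-CSF, and the study's methods name C57BL/6 mice as the marrow source and the broadly active CAG promoter as the driver of both transgenes. Whether samples came from separate animals or cultures is not given in the sources used here, so p-values measure only the spread between these samples, which may be technical.

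Macrophages take up fat from lipoproteins outside the cell and from engulfed particles. Lipases at the cell surface and in the lysosome release fatty acids, binding proteins carry them through the cytosol, and acyl-CoA synthetases attach coenzyme A so that they can be burned, built into membranes or stored. Stored triglyceride sits in lipid droplets, which are coated by perilipins and emptied by adipose triglyceride lipase. Foam cells of the atherosclerotic plaque are macrophages filled with such droplets.

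The LPS libraries held 7263258 to 32659392 reads, with the fewest at 2 h. The factors that the authors used to scale them differ from the library totals, so that a fold against 0 h is 1.58 times larger at 2 h and 1.77 times larger at 4 h in the deposited values than in shares of reads. On library totals the median log2 change of all genes kept was -0.68 at 2 h and -0.81 at 4 h, against -0.05 and -0.04 in the deposited values, so the 10 genes' changes are given below under both scalings, and the 4 h counts of the lipid gene lists likewise. In the AAV experiment Shisa3 itself was at 7.88 and 10.85 TPM in AAV-GFP and at 12.31 and 17.81 TPM in AAV-Shisa3 (log2 fold change 0.63, limma adjusted p = 0.138), so the transgene's own gene did not pass the threshold. Of 10 macrophage markers, all were tested in the AAV samples, where their summed level, mostly Lyz2, was 36572 to 40109 TPM and 1 of them, Cd14, was called higher in AAV-Shisa3 (log2 fold change 0.78, limma adjusted p = 0.0153). In the LPS libraries the 9 that could be read summed to 34956, 23750 and 19626 RPM (share of reads) at 0 h, 2 h and 4 h, with a median log2 change at 4 h of 0.11 in the deposited values. At 4 h 2 of these 9 were at least 2-fold higher and none lower, or 2 and 3 in shares of reads. Of 8 neutrophil markers, 4 had passed 2-fold upward by 2 h, while at 4 h none was higher and 1 lower, or 0 and 3 in shares of reads, with sums of 470, 625 and 397 RPM. With LPS the endothelial sums were 102, 77.4 and 111 RPM, with 2 of 4 markers kept at least 2-fold higher and 1 lower at 4 h, or 2 and 2 in shares of reads. The fibroblast sums were 47.7, 58.2 and 59.6 RPM, with 2 of 7 higher and none lower, or 1 and 0. The dendritic cell sums were 6.48, 8.40 and 16.8 RPM, with 2 of 6 higher and 2 lower at 4 h, or 1 and 3, and the lymphoid and erythroid sums 1.48, 0.964 and 0.122 RPM. Over all genes kept, 20.5% were at least 2-fold higher and 24.7% lower at 2 h, and 22.2% and 23.6% at 4 h. In shares of reads 2304 genes were higher and 7985 lower at 4 h. The part of any list in the LPS values of the lipid genes was not tested. Of 8 adipocyte markers, 6 were at 0 in every AAV sample and 6 had no reads in the LPS libraries. Their sums, 15.8 to 19.8 TPM and 44.2 to 46.4 RPM, came nearly all from Lipe, which encodes hormone-sensitive lipase. The summed level was 7.67 to 9.60 TPM for the 8 endothelial cell markers, with 2 at 0, and 10.3 to 17.5 TPM for the 7 fibroblast markers, with none at 0. It was 2.50 to 4.20 TPM for the 6 dendritic cell markers, with 1 at 0, and 0.28 to 1.09 TPM for the 7 lymphoid and erythroid cell markers, with 3 at 0.

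The genes with a promoter window in RefSeq were searched for motifs of transcription factors that act in stimulated macrophages. A window spans 250 bases before to 50 after a transcription start, on build GRCm38.p6, and 6 of the 10 genes had one, in 8 windows. The motifs were the NF-κB site, the hypoxia core ACGTG, the AP-1 site TGANTCA and the E-box CACGTG, which contains ACGTG on each strand, and all were searched on both strands. They are shown because Pnpla2, Plin2 and Hilpda, the genes with a match, all serve the lipid droplet and had different LPS patterns. Capitals mark the motif, and each run is written 5′ to 3′ on the gene's own strand.
Pnpla2, NF-κB site 163 to 154 bases before the start, plus strand, chr7:141454995-141455064: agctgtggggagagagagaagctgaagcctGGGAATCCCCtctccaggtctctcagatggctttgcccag
Plin2, E-box across the start, minus strand, chr4:86670058-86670093: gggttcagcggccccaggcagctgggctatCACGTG
Hilpda, AP-1 site 11 to 17 bases after the first of 2 starts, plus strand, chr6:29272468-29272504: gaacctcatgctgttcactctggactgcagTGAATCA

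Hilpda also held ACGTG 43 to 39 bases before its second start, and the windows of Lipa, Acsl1 and Fasn held none of the 4 motifs. Among all 32851 windows, the NF-κB site occurred in 4.51%, ACGTG in 19.6%, TGANTCA in 7.81% and CACGTG in 7.15%. The matches describe letters in a window only, and no binding was measured.

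In unstimulated BMDMs the genes spanned a wide range of levels per transcript length. In RPKM, which scales reads by transcript length and library total, Lipa stood at 354, Fabp5 at 295, Plin2 at 233 and Lpl at 86.8. Pnpla2 stood at 38.6, Fabp4 at 13.8, Acsl1 at 12.5, Fasn at 11.1 and Hilpda at 2.68. Lipg was nearly silent, at 0.0678 RPKM from 4 reads. Among 13219 protein-coding genes, Lipa ranked at position 117 and Lipg at 12372.

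After 4 h of LPS this order had changed. Plin2 (194 RPKM) and Fabp5 (145) stayed among the highest, while Lipg reached 211 RPKM, the highest of the 10, and moved to rank 303. Acsl1 moved from rank 4739 to 618, at 108 RPKM, and Lipa to rank 678, at 98.6 RPKM. Lpl was at 96.4 RPKM, close to Lipa. The lowest were Fabp4 at 18.4 RPKM, Pnpla2 at 14.0, Fasn at 9.99 and Hilpda at 3.27.

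**Figure D1:**
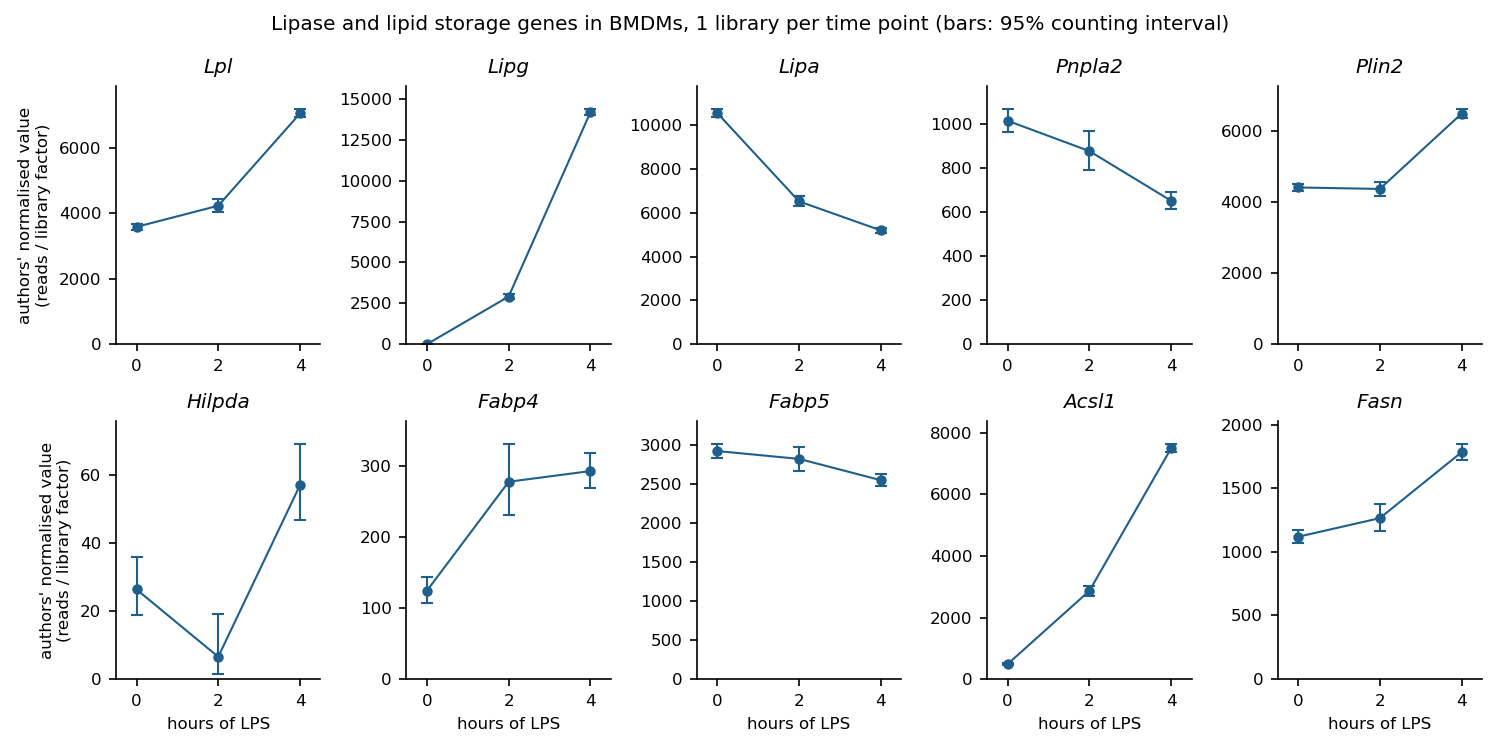
Normalised values (vertical axis from 0, reads divided by the authors' library factor) of the 10 genes against hours of LPS (horizontal axis), with 1 library per time point and bars for the 95% counting interval. In these values Lipg, Acsl1, Lpl, Fasn and Fabp4 were higher at each step, and Lipa, Pnpla2 and Fabp5 were lower. Plin2 and Hilpda were lowest at 2 h, where Hilpda rests on 3 reads. The step of Fabp4 from 2 h to 4 h and the first steps of Fabp5 and Plin2 lie within counting error.

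Counted over the 10 genes, 3 were at least 2-fold higher at 2 h (Lipg, Acsl1 and Fabp4) where 20.5% of all genes kept were, and 1 was at least 2-fold lower (Hilpda) where 24.7% were. At 4 h, 4 were at least 2-fold higher (Lipg, Acsl1, Fabp4 and Hilpda) against 22.2% of all genes, and 1 was at least 2-fold lower (Lipa) against 23.6%. The shares of the 10 past 2-fold upward are 1 gene or 2 above what the background gives and do not set the group apart. Centred on the library median, 6 of the 10 were at least 2-fold higher and 0 lower at 4 h, where 5285 of all genes were higher and 3036 lower and the median log2 change of all genes was 0.33. The median log2 change of the 10 was 0.08 at 2 h and 0.82 at 4 h, against -0.05 and -0.04 for all genes kept. With library totals it was -0.58 and 0.00, against -0.68 and -0.81. With 1 library per time point there is no test, and every interval given for LPS covers counting error only. Fewer expressing cells and less RNA per cell cannot be told apart in these bulk samples.

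Lipg encodes endothelial lipase, a secreted phospholipase that acts on high-density lipoprotein. Its gene lies on chromosome 18, from 74939322 to 74961263 on the minus strand of GRCm38. The normalised value was 2.57 at 0 h, 2915 at 2 h and 14179 at 4 h, from 4, 1335 and 26092 reads. Lipg was thus detected by a handful of reads in unstimulated cells and was among the more abundant transcripts in stimulated ones. The ratio of 4 h to 0 h was 5510, with a counting interval of 2152 to 20226 that is wide because of the 4 reads at 0 h. From 2 h to 4 h, where both libraries were well covered, the ratio was 4.86 (4.60 to 5.14). In shares of reads the ratio to 0 h was 716 at 2 h and 3113 at 4 h.

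Among 13090 genes with a mean of at least 10, the pair of log2 changes closest to that of Lipg belonged to Nos2, which encodes inducible nitric oxide synthase. Its distance was 0.94 log2 units, followed by Saa3 (serum amyloid A3) at 0.99 and Edn1 (endothelin 1) at 1.34. These distances rest on 2 differences from 3 libraries and on few reads at 0 h, 4 for Lipg, 9 for Nos2, 64 for Saa3 and 3 for Edn1. The order of these neighbours is not resolved at such counts.

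Lpl encodes lipoprotein lipase, which hydrolyses triglyceride in circulating lipoproteins, and lies on chromosome 8 from 68880491 to 68907448. Its normalised value was 3581 at 0 h, 4228 at 2 h and 7042 at 4 h. At 4 h it was 1.97-fold higher (1.91 to 2.03) by the deposited values and 1.11-fold higher (1.08 to 1.15) by shares of reads. At 2 h the direction depended on the scaling, at 1.18-fold by the deposited values and 0.746-fold by shares of reads.

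Lipa encodes lysosomal acid lipase, which releases fatty acids and cholesterol from engulfed lipoproteins, and lies on chromosome 19 from 34492318 to 34527474. It was at 10553 at 0 h, 6520 at 2 h and 5198 at 4 h, the lowest value coming last. This was 0.618-fold (0.594 to 0.643) at 2 h and 0.493-fold (0.480 to 0.505) at 4 h, and shares of reads gave 0.391-fold and 0.278-fold. Lipa was lower at both times under all 4 scalings of the reads. The genes with the most similar pair of changes were Atp6v0d2, a subunit of the proton pump that acidifies lysosomes, at 0.0204 log2 units, Snhg5 at 0.0275 and Nosip at 0.0311. At 2 h they rested on 84, 22 and 119 reads, so such small distances lie within counting error and their order is not resolved.

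Pnpla2 encodes adipose triglyceride lipase, which starts the breakdown of droplet triglyceride, and lies on chromosome 7 from 141455198 to 141460743. It was at 1016 at 0 h, 878 at 2 h and 652 at 4 h. The ratio to 0 h was 0.864 (0.773 to 0.965) at 2 h and 0.642 (0.595 to 0.692) at 4 h, and shares of reads gave 0.546 and 0.363. Pnpla2 was lower at 4 h under all 4 scalings, whereas at 2 h it was lower in 3 of them and higher, by 0.10 on the log2 scale, when each library was centred on its median. At 4 h the lysosomal and the droplet lipase were thus both lower than at 0 h, while Lipg and Lpl, the secreted lipases, were both higher.

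**Figure D2:**
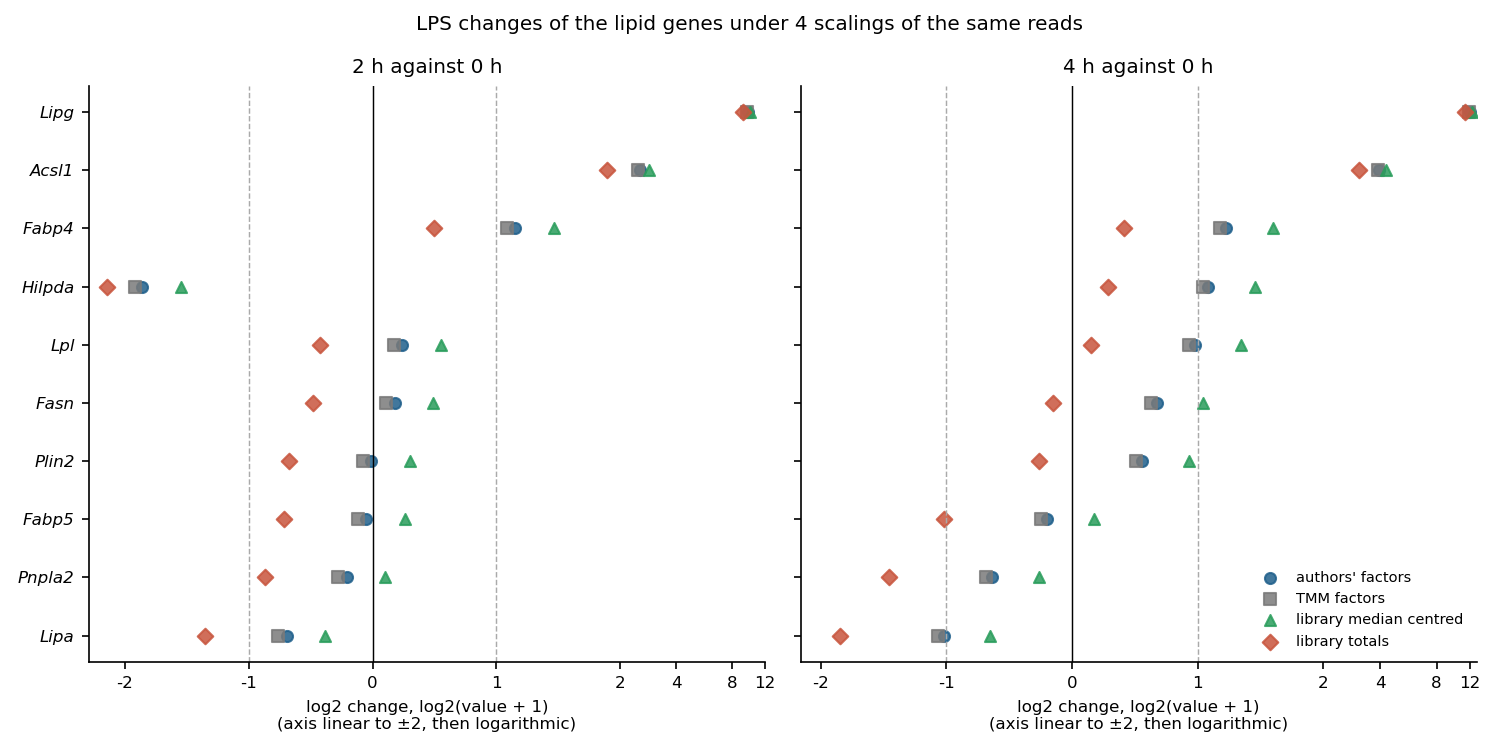
Log2 change of each gene at 2 h (left) and 4 h (right) of LPS against 0 h (horizontal axis, linear to ±2 and logarithmic beyond, on value + 1) under 4 scalings of the same reads (symbols), with dashed lines at 2-fold. At 4 h Lipg, Acsl1, Fabp4, Hilpda and Lpl are to the right of 0 and Pnpla2 and Lipa to the left under every scaling, while Fasn, Plin2 and Fabp5 cross 0.

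Plin2 encodes perilipin 2, the main droplet coat protein of macrophages, and lies on chromosome 4 from 86648386 to 86670060. Its E-box lies at the start shown above. Plin2 was at 4413 at 0 h, 4372 at 2 h and 6490 at 4 h. Its 2 h ratio of 0.991 (0.942 to 1.04) included 1, and the 4 h ratio was 1.47 (1.43 to 1.52). In shares of reads the ratio was 0.626 at 2 h and 0.831 (0.807 to 0.856) at 4 h, so the direction for Plin2 at 4 h depends on the scaling. The step from 2 h to 4 h was upward under both, at 1.48-fold and 1.33-fold.

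Hilpda encodes a small hypoxia-inducible droplet protein that inhibits adipose triglyceride lipase, and lies on chromosome 6 from 29272488 to 29275446. It was the sparsest of the 10 after stimulation, with 41 reads at 0 h, 3 at 2 h and 105 at 4 h, or normalised values of 26.4, 6.55 and 57.1. The ratio to 0 h was 0.248 (0.0492 to 0.779) at 2 h and 2.16 (1.49 to 3.18) at 4 h. In shares of reads the ratio was 0.157 at 2 h and 1.22 (0.844 to 1.80) at 4 h, an interval that included 1, so an increase at 4 h was not detectable at this depth on that scale. The step from 2 h to 4 h was 8.71-fold, with an interval of 2.90 to 42.9. Hilpda was thus lowest at 2 h under both scalings, whereas Pnpla2, whose product it inhibits, was lowest at 4 h.

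Fabp4 and Fabp5 encode fatty acid binding proteins of the adipocyte and epidermal type. Both lie on chromosome 3, Fabp5 from 10012548 to 10016607 and Fabp4 from 10204088 to 10208576, with 187 kb between them. Fabp5 was the more abundant at every time, and the pair differed with LPS. Fabp4 was at 124 at 0 h, 277 at 2 h and 292 at 4 h. It was 2.23-fold higher (1.77 to 2.81) at 2 h, and the ratio of 4 h to 2 h was 1.05 (0.867 to 1.29), an interval that included 1. In shares of reads Fabp4 was 1.41-fold and 1.33-fold higher than at 0 h. Fabp5 was at 2917, 2817 and 2544, with ratios of 0.966 (0.907 to 1.03) at 2 h and 0.872 (0.837 to 0.909) at 4 h. It was 0.611-fold at 2 h and 0.493-fold at 4 h in shares of reads and, with each library centred on its median, higher by 0.17 on the log2 scale, so no direction can be given for Fabp5.

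Acsl1 encodes a long-chain acyl-CoA synthetase and lies on chromosome 8 from 46471037 to 46536051. It was at 489 at 0 h, 2867 at 2 h and 7501 at 4 h. The ratio to 0 h was 5.86 (5.36 to 6.42) at 2 h and 15.3 (14.3 to 16.5) at 4 h, and shares of reads gave 3.71 and 8.67. Among the 10 genes, Acsl1 therefore had the highest 4 h fold after Lipg under each scaling. A short unconfirmed transcript, Gm45244, overlaps Acsl1 on the opposite strand over 2200 bases, and whether reads were counted by strand is not given in the sources used here.

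Fasn encodes fatty acid synthase, which builds palmitate, and lies on chromosome 11 from 120805846 to 120824547. It was at 1118 at 0 h, 1264 at 2 h and 1782 at 4 h. The 4 h ratio was 1.59 (1.50 to 1.69) by the deposited values and 0.901 (0.850 to 0.955) by shares of reads, and the 2 h ratio was 1.13 against 0.715, so its direction depends on the scaling at both times.

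Enforced Shisa3 expression was compared with GFP in the second experiment, to ask whether these genes differ in macrophages carrying the Shisa3 vector. No gene of the 10 passed the limma test at an adjusted p of 0.05, where 2.23% of all genes tested were called higher and 4.10% lower. Before adjustment, p was under 0.05 for 3 of the 10 that were higher (Lipa, Hilpda and Lipg) and for 2 that were lower (Fabp4 and Fabp5), where it was so for 8.21% of all genes tested as higher and 19.8% as lower. Both AAV-Shisa3 samples lay above both AAV-GFP samples for 4 of the 10, against 18.2% of all genes, and below them for 5, against 41.2%, a share close to the background. Plin2 overlapped. The median log2 fold change was -0.07 for the 10 and -0.10 for all genes tested.

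**Figure D3:**
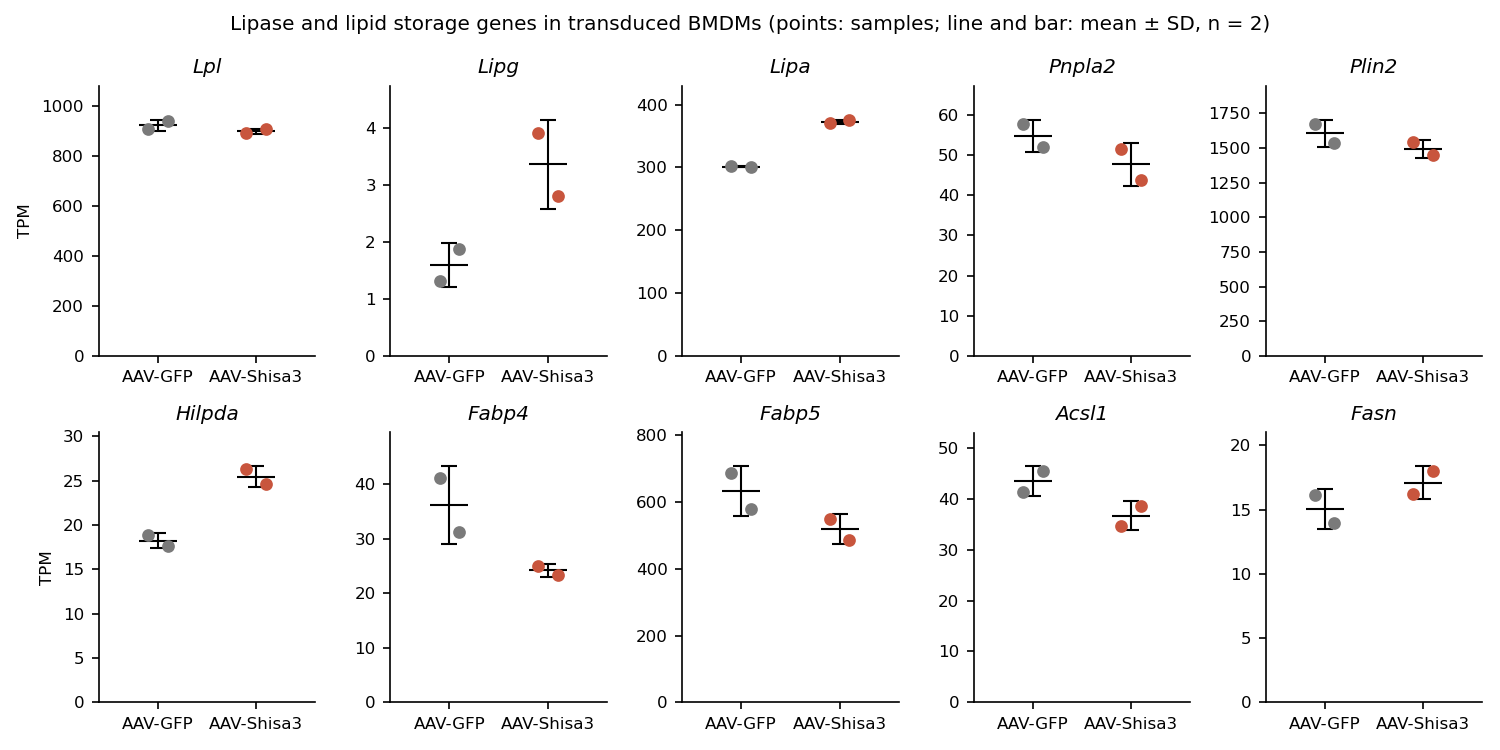
Level in TPM (vertical axis from 0) of the 10 genes in the 2 AAV-GFP and 2 AAV-Shisa3 samples (points), with the mean and SD of each group. Lipa, Hilpda, Lipg and, barely, Fasn lie higher in both AAV-Shisa3 samples. Fabp4, Fabp5, Acsl1, Pnpla2 and Lpl lie lower in both, and Plin2 overlaps.

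Among the lipases, Lipa was at 301.42 and 301.27 TPM in AAV-GFP and at 370 and 375 TPM in AAV-Shisa3. The samples within each group lay close together and the groups did not overlap. The log2 fold change was 0.30 ± 0.07 (SE, n = 2 per group), with a 95% interval of 0.14 to 0.47 and a limma adjusted p of 0.0534. Over the alternative fits the adjusted p for Lipa ran from 0.0376, with samples centred on their median, to 0.217, with a sample left out, and it was 0.134 without the trend.

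Lipg stayed low in transduced BMDMs, at 1.32 and 1.87 TPM in AAV-GFP and 3.91 and 2.81 TPM in AAV-Shisa3. Both AAV-Shisa3 samples were higher, and the ratio of the mean TPM was 2.11. On the log2(TPM + 1) scale, which understates changes of low genes, the difference was 0.75 ± 0.22 (SE, limma adjusted p = 0.0968).

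Lpl was at 908 and 939 TPM in AAV-GFP and 892 and 907 TPM in AAV-Shisa3. This was a difference of -0.04 on the log2 scale with a 95% interval of -0.20 to 0.13 (limma adjusted p = 0.737), and it turned to 0.08 when samples were centred. Pnpla2 was at 57.6 and 51.9 TPM in AAV-GFP and at 51.5 and 43.9 TPM in AAV-Shisa3. Its samples were lower without overlap but nearly touching, with a log2 difference of -0.20 and an interval of -0.47 to 0.07 (limma adjusted p = 0.293). The difference was -0.09 without AAV-Shisa3 replicate 2, -0.31 without AAV-Shisa3 replicate 1 and -0.08 after centring.

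Of the droplet proteins, Hilpda was at 18.85 and 17.66 TPM in AAV-GFP and at 26.29 and 24.61 TPM in AAV-Shisa3. The groups were well separated, with a log2 difference of 0.46 ± 0.10 (SE), an interval of 0.21 to 0.70 and a limma adjusted p of 0.0543. By limma the adjusted p for Hilpda was 0.0390 with samples blocked by replicate number and 0.0414 after centring. Without the trend it was 0.0861, and without the filter 0.146. Plin2 was the most abundant of the 10, at 1675 and 1537 TPM in AAV-GFP and at 1541 and 1448 TPM in AAV-Shisa3, and its groups overlapped (log2 difference -0.10, interval -0.30 to 0.09, limma adjusted p = 0.433).

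The binding proteins had their lower values in AAV-Shisa3, and neither passed the test. Fabp4 was at 41.2 and 31.2 TPM in AAV-GFP and at 25.1 and 23.3 TPM in AAV-Shisa3, with a log2 difference of -0.55 ± 0.15 (SE, limma adjusted p = 0.0840). Without AAV-GFP replicate 1, the higher of the control samples, the difference was -0.35, and after centring it was -0.43 (limma adjusted p = 0.172). Fabp5 was at 685 and 580 TPM against 549 and 486 TPM, with a log2 difference of -0.29 ± 0.11 (SE, limma adjusted p = 0.159), or -0.17 both without AAV-GFP replicate 1 and after centring (limma adjusted p = 0.453).

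Acsl1 was at 41.4 and 45.5 TPM in AAV-GFP and at 34.6 and 38.6 TPM in AAV-Shisa3. Both AAV-Shisa3 values were lower, with a log2 difference of -0.24 and an interval of -0.49 to 0.01 (limma adjusted p = 0.188). Fasn was at 16.16 and 13.92 TPM in AAV-GFP and at 16.17 and 17.99 TPM in AAV-Shisa3. The lowest AAV-Shisa3 value was level with the highest control, and the difference of 0.17 had an interval of -0.13 to 0.48 (limma adjusted p = 0.390). It was 0.07 without AAV-GFP replicate 2, 0.28 without AAV-GFP replicate 1 and 0.29 after centring.

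**Figure D4:**
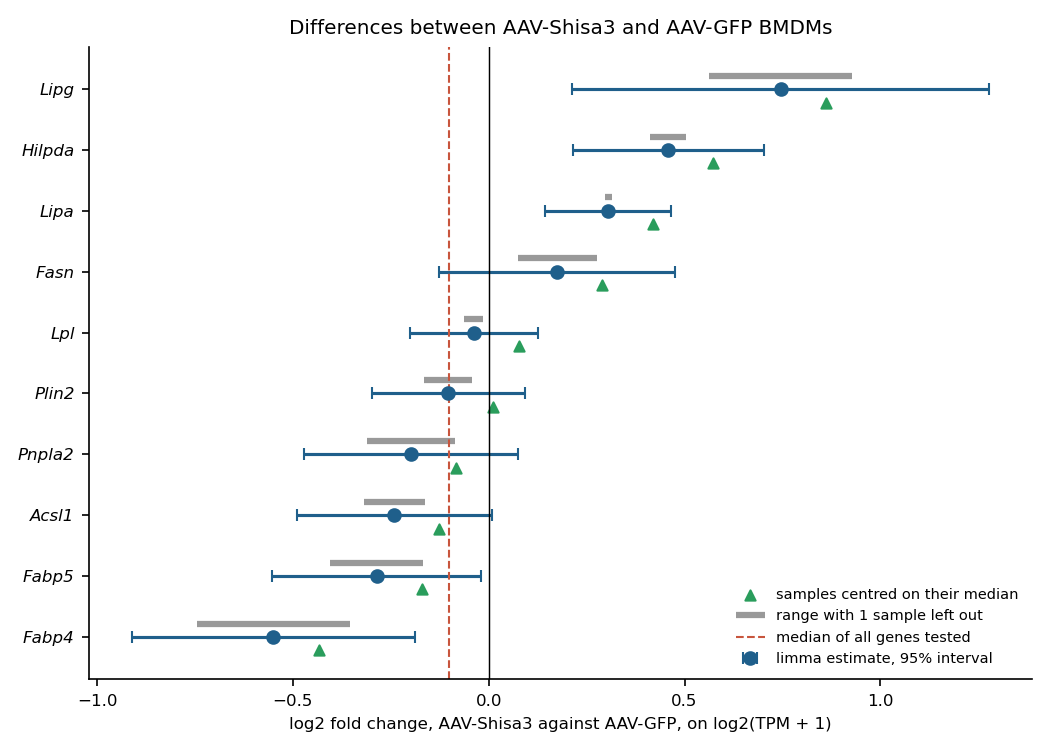
Log2 fold change of AAV-Shisa3 against AAV-GFP (horizontal axis, on TPM + 1) for each gene, as the limma estimate with its 95% interval (circles and lines), the estimate after centring samples on their median (triangles) and the range over fits with 1 sample left out (grey bars). The dashed line is the median of all genes tested, at -0.10, and Lipg, Hilpda and Lipa lie above 0 with their whole intervals while Fabp5 and Fabp4 lie below it.

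In AAV-GFP the order of levels in TPM ran from Plin2 through Lpl, Fabp5, Lipa, Pnpla2, Acsl1, Fabp4, Hilpda and Fasn to Lipg. No neighbours overlapped in their samples, although Acsl1 and Fabp4 nearly touched (41.38 and 41.23 TPM). In AAV-Shisa3 Hilpda (26.29 and 24.61 TPM) drew level with Fabp4 (25.10 and 23.30 TPM) and their samples overlapped, while the other neighbours kept apart.

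Of the neutrophil markers, 2 of 7 tested passed the limma test as higher in AAV-Shisa3 (2.23% of all genes did), Camp (log2 fold change 1.14) and Ngp (1.02). All 7 were at higher values in both AAV-Shisa3 samples, against 18.2% of all genes, with a median log2 fold change of 0.75, and the summed level of the 8 listed was 593 and 565 TPM in AAV-GFP and 1089.5 and 681 TPM in AAV-Shisa3. None of the 8 was at 0 in every sample. The part of these markers in the differences of the lipid genes was not tested.

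The LPS and AAV tables were normalised separately and share no sample, so the changes are set side by side. The sign at 4 h of LPS was that in AAV-Shisa3 for 5 of the 10 genes and for 57.1% of 10532 genes in both tables, a share close to that of the 10, and the signs of Lpl, Plin2, Fabp5 and Fasn depend on the scaling in at least 1 of the experiments. Lipg had log2 changes of 11.95 with LPS and 0.75 with AAV-Shisa3, and Hilpda of 1.08 and 0.46. Lipa went from a log2 change of -1.02 with LPS to 0.30 with AAV-Shisa3, Acsl1 from 3.94 to -0.24 and Fabp4 from 1.23 to -0.55, with none of the AAV values past the threshold.

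Other genes of lipid handling were summarised in lists by function. Over all genes at 4 h of LPS, 22.2% were at least 2-fold higher and 23.6% lower in the deposited values, 3958 and 4207 genes. In shares of reads 2304 were higher and 7985 lower, so counts shift downward across the whole table. In the AAV test 2.23% of all genes were called higher and 4.10% lower. Single 4 h folds below are by the deposited values unless stated, and are 1.77 times larger than in shares of reads. The partners of lipoprotein lipase had 8 of 10 genes kept in the LPS table, of which 1 reached a 2-fold increase and 2 a 2-fold decrease at 4 h (median log2 change -0.01). These counts were 0 and 2 in shares of reads. Angptl4, which encodes a secreted inhibitor of lipoprotein lipase, went from 95 reads at 0 h to 7 at 2 h and 1 at 4 h, a 4 h ratio of 0.00889 with an interval of 0.000223 to 0.0508. Furin, a protease that cleaves lipoprotein lipase and endothelial lipase, was 2.90-fold higher at 4 h. It also passed the test in AAV-Shisa3, with 30.3 and 36.4 TPM in the controls against 58.4 and 62.2 (log2 fold change 0.84, limma adjusted p = 0.0232), as the 1 call among 6 partners tested.

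The other neutral and lysosomal lipases had 3 of 13 genes at least 2-fold higher and 5 at least 2-fold lower at 4 h of LPS (median -0.14), or 1 and 6 in shares of reads. Nceh1, a neutral cholesteryl ester hydrolase, was at 0.235-fold and Daglb, a diacylglycerol lipase, at 0.258-fold, while Ddhd1, a phospholipase, was at 3.66-fold. G0s2, an inhibitor of adipose triglyceride lipase, was at normalised values of 4.50, 98.3 and 11.4 at 0 h, 2 h and 4 h, from 7, 45 and 21 reads. Its 2 h ratio was 21.8 (9.77 to 57.4), and its 4 h ratio of 2.53 (1.04 to 7.06) became 1.43 (0.586 to 3.99) in shares of reads. Nceh1 also fell in AAV-Shisa3, with 90.2 and 79.7 TPM in the controls against 48.8 and 42.3 (log2 fold change -0.89, limma adjusted p = 0.0207), as the 1 call among 11 tested.

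For triglyceride and cholesteryl ester synthesis, 5 of 14 genes were at least 2-fold higher and 2 at least 2-fold lower at 4 h (median 0.50). In shares of reads 2 were higher and 4 lower, a downward shift that the whole table shares. None of 13 was called in AAV-Shisa3, where 3 were higher and 4 lower in both samples. Dgat2, which adds the last fatty acid to triglyceride, was 16.6-fold higher (11.6 to 24.6), and Soat2, a cholesterol acyltransferase, was 11.3-fold higher (5.29 to 29.0), from 7 and 94 reads. Lpin1, a phosphatidate phosphatase, had 1182 reads at 0 h, 42 at 2 h and 12 at 4 h, a ratio of 0.00858 (0.00442 to 0.0150). Soat1, the other cholesterol acyltransferase, was at 0.413-fold.

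Of the other lipid droplet proteins, 8 of 15 were kept, with no 2-fold increase at 4 h and 1 gene at least 2-fold lower (median -0.16), against 0 and 4 in shares of reads. The gene lower in the deposited values was Plin3, another perilipin, at 0.497-fold, and Plin3 also fell in AAV-Shisa3, with 55.3 and 54.2 TPM in the controls against 38.0 and 37.1 (log2 fold change -0.53, limma adjusted p = 0.0277), as the 1 call among 7 tested. The adjusted p was 0.0504 when samples were centred. In the uptake and binding list, 4 of 8 genes were at least 2-fold higher and none lower at 4 h (median 0.94), or 3 and 1 in shares of reads, and none of 6 was called in AAV-Shisa3. Fabp7 and Fabp3, relatives of Fabp4, were at 24.7-fold (9.40 to 92.2) and 11.3-fold (8.77 to 14.8), with 4 and 65 reads at 0 h, while Cd36, a fatty acid translocase, was at 0.952-fold.

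Among the other acyl-CoA synthetases, 1 of 6 genes passed 2-fold upward and 3 downward at 4 h (median -0.74), or 1 and 4 in shares of reads. Acsl5 was 6.18-fold higher and Acsl4 1.94-fold, whereas Acss1 was at 0.278-fold and Acsl3 at 0.430-fold. Acsl3 was the 1 call among 6 in AAV-Shisa3, with 6.12 and 8.02 TPM in the controls against 3.59 and 3.14 (log2 fold change -0.88, limma adjusted p = 0.0446, or 0.0553 when centred).

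In the synthesis and desaturation list, none of 13 genes passed 2-fold upward and 2 were at least 2-fold lower at 4 h (median -0.11). Counted in shares of reads, 6 were lower and none higher, where 7985 genes of the whole table were lower and 2304 higher. Lowest were the desaturases Fads1 at 0.179-fold and Scd2 at 0.377-fold. In AAV-Shisa3, 3 of 10 passed the test and all were higher, where 2.23% of all genes tested were called higher and 4.10% lower. Fads2, a desaturase, was at 5.32 and 4.41 TPM in AAV-GFP and 14.1 and 10.5 in AAV-Shisa3 (log2 fold change 1.17, limma adjusted p = 0.0279). Scd1, the delta-9 desaturase, was at 2.88 and 3.44 TPM against 8.68 and 6.88 (1.07, adjusted p = 0.0295 by limma), and Me1, malic enzyme, changed by 0.58 (adjusted p = 0.0350 by limma). Fasn itself did not pass.

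For fatty acid oxidation, none of 14 genes passed 2-fold upward and 6 were at least 2-fold lower at 4 h (median -0.56), and in shares of reads 9 were lower. Acadm, a medium-chain dehydrogenase, was at 0.257-fold and Ehhadh, a peroxisomal enzyme, at 0.291-fold, while Acadl was at 1.92-fold and Hadhb at 1.34-fold, or 0.754-fold in shares of reads. In AAV-Shisa3 none of 13 was called, 9 were lower in both samples, none was higher in both, and the median log2 fold change was -0.23, where 41.2% of all genes were lower in both, 18.2% higher in both and the median was -0.10. Of the transcription factors of lipid metabolism, 6 of 16 were at least 2-fold higher and 6 at least 2-fold lower at 4 h (median 0.46), against 2 and 7 in shares of reads. Cebpb was 9.72-fold higher and Hif1a 6.15-fold, while Cebpa was at 0.0620-fold and Rxra at 0.0803-fold. Cebpb was the 1 call among 14 in AAV-Shisa3, at a log2 fold change of 0.48 (limma adjusted p = 0.0422).

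**Figure D5:**
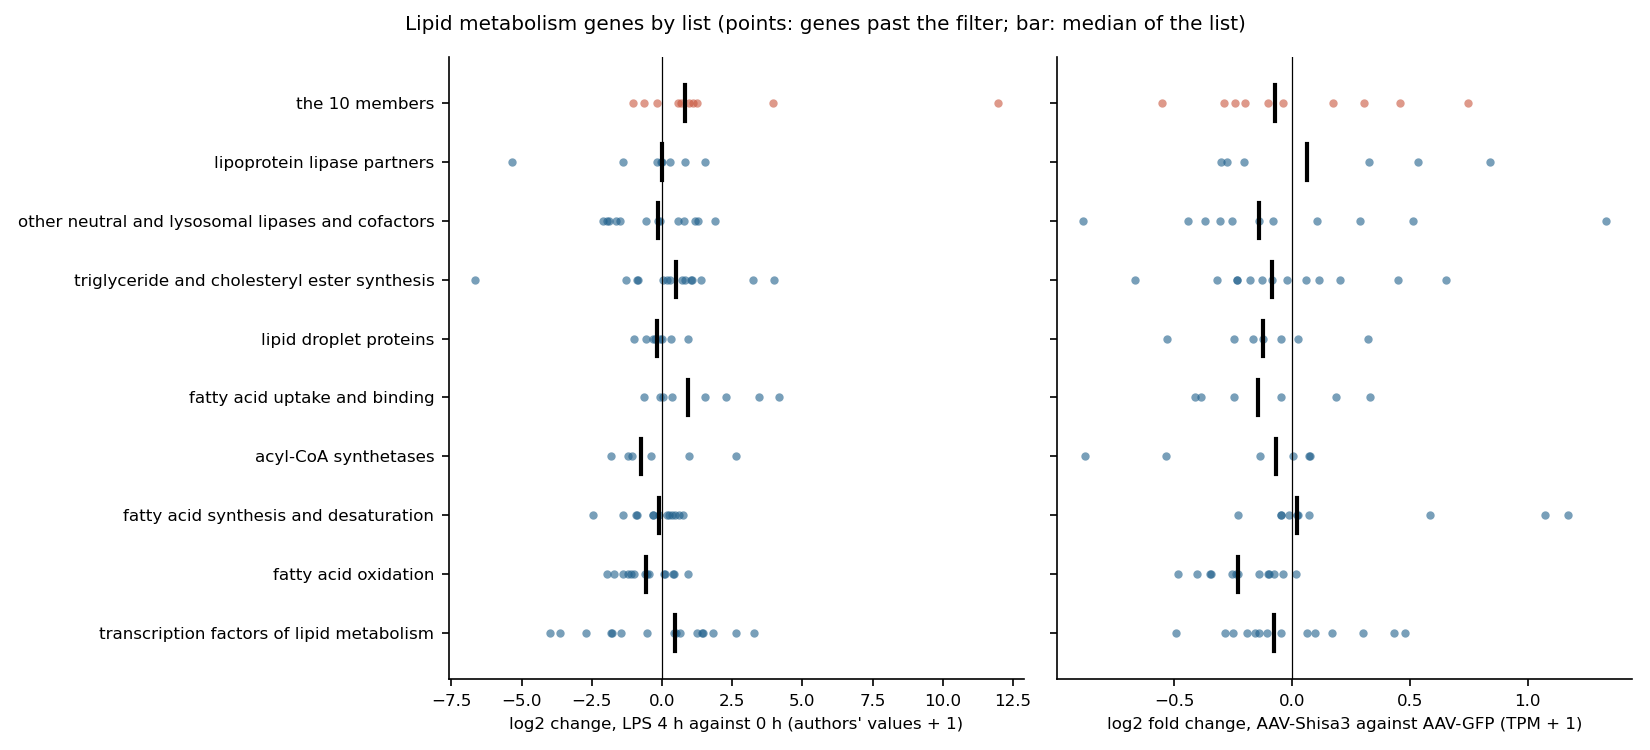
Log2 changes of the 10 genes (red, top row) and of 9 lists of other lipid genes (blue), at 4 h of LPS against 0 h (left, horizontal axis on the deposited values + 1) and in AAV-Shisa3 against AAV-GFP (right, on TPM + 1), with 1 point per gene past the filter and a black bar at each list's median. The oxidation genes lie mostly left of 0 in both panels, and the points of the AAV panel span a much narrower range than those of the LPS panel.

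For the 8 AAV calls in the lipid gene lists, the adjusted p was 0.0557 to 0.0993 by limma without the trend and 0.105 to 0.178 without the filter, with the same folds. The marker calls Cd14, Camp and Ngp were not followed into the other fits. Those fits called few genes in the whole table, 1 higher and 4 lower without the trend and none without the filter (1118 and 2411 before adjustment), and so say little about any single gene. With 1 sample left out, where the lone sample is assumed to vary like the other group, none of the 8 passed, and the log2 fold changes stayed near their size. They were 0.71 to 0.97 for Furin, 0.97 to 1.37 for Fads2, 0.92 to 1.22 for Scd1, 0.55 to 0.61 for Me1 and 0.38 to 0.57 for Cebpb. For the genes that were lower they were -0.99 to -0.78 for Nceh1, -0.55 to -0.51 for Plin3 and -1.05 to -0.71 for Acsl3. In those fits 0, 0, 20 and 32 genes of the whole table were called higher without AAV-GFP replicate 1, AAV-GFP replicate 2, AAV-Shisa3 replicate 1 and AAV-Shisa3 replicate 2, against 250 with all samples. The counts called lower were 0, 0, 5 and 10, against 460. At an unadjusted limma p under 0.05, 620 genes were higher and 1723 lower without AAV-GFP replicate 1, and 768 and 1290 without AAV-GFP replicate 2.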

How the data were processed

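RNA sequencing of 3 LPS libraries and 4 AAV samples was read from 2 tables, and every sample column was used. The LPS table holds a signal deposited by the authors, namely reads divided by 1 factor per library; whole reads were recovered for 100% of values (tolerance 0.01 read). For the AAV table the authors deposited TPM, a unit inferred from the values, so its depth is unknown. The submitters' processing notes name build mm9, whereas 99.2% of the LPS identifiers are in GENCODE M21, from which positions on GRCm38 and the longest coding transcript lengths behind RPKM were taken; the aligner and counter are not given in the sources used here.

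LPS changes are differences of log2(value + 1). Read counts have exact Poisson intervals and ratios exact conditional (Clopper-Pearson) intervals, at 95% and for counting error only. AAV groups were compared with limma 3.58.1 (trend, log2(TPM + 1), mean of at least 1, Benjamini-Hochberg over all genes tested). Permutation of 2 against 2 samples cannot give a p under 0.333. Alternatives were TMM (edgeR 4.0.16), library totals, centring, other filters and pseudocounts, the limma fit without trend, the replicate block and leaving out each sample.

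The members and gene lists were chosen with earlier results of these data known. All members were named, and listed genes where the AAV test called them or, for LPS, from the 2 largest changes each way per list with at least 20 reads in the higher library; Cd36, G0s2, Acsl4 and Hadhb fall under that rule. Of the listed genes, Gpat3 had no row and Itgam had 2 rows in the LPS table, and both were left out there. The limma step was tested on simulated data.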

Additional observations from a re-analysis of the deposited data

Results flagged for a closer look

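In the deposited values Plin2 and Hilpda had opposite signs at the 2 times of LPS. Hilpda was at -1.86 on the log2 scale at 2 h and 1.08 at 4 h, with the same signs under all 4 scalings. Plin2 was at -0.0135 and 0.557, but at -0.67 and -0.27 with library totals and at 0.30 and 0.93 with each library centred, so its opposite signs depend on the scaling. Each time point is 1 library, both changes share the 0 h library, and the difference between them was not tested. The 2 h value of Plin2 lies within its counting interval around no change, and that of Hilpda rests on 3 reads.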

How the results depend on the processing

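For the LPS libraries, library totals gave 2377 genes at least 2-fold higher and 7290 lower at 2 h, and 2304 higher and 7985 lower at 4 h, against 3668, 4406, 3958 and 4207 with the authors' factors. Under library totals, 2 of the 10 genes were at least 2-fold lower at 2 h, and at 4 h 2 were higher and 3 lower. Centring each library on its median gave 6 of the 10 at least 2-fold higher and 0 lower at 4 h, where the deposited values gave 4 and 1, and 5285 genes higher and 3036 lower in all. Of 140 comparisons of single genes with an alternative, 36 moved beyond their counting interval.

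In the AAV comparison, 250 genes were called higher and 460 lower. The limma fit without the trend called 1 and 4 (811 and 2148 at an unadjusted p under 0.05), the fit without a filter called 0 and 0 (1118 and 2411), and centring called 410 and 230. A filter of at least 1 TPM in every sample called 325 and 617. It and centring each called 2 of the 10 genes higher, Lipa and Hilpda. Lpl changed sign to 0.0775 and Plin2 to 0.0120 when centred. With each sample left out in turn, 0 to 32 genes were called higher and 0 to 10 lower, and none of the 10. The samples share only replicate numbers: with the replicate block 424 genes were called higher and 851 lower, 2 of the 10 higher (Lipa and Hilpda) and 2 lower (Fabp4 and Fabp5), and the deviations of equally numbered samples correlated at 0.188. Of 100 such single-gene comparisons, 90 kept direction and side of the threshold. With none of the 10 called in the main fit and few genes called in several alternatives, staying on that side was likely in advance. The causes were not tested. Depth limits Hilpda at 2 h and Lipg at 0 h.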
